A study of Homo sapiens with 10 samples.

Results

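A megakaryocyte releases platelets by pushing out long cytoplasmic processes, the proplatelets, and the cytoskeletal proteins that build and bend these processes are the subject here. The 10 genes studied were TUBB1, MYH9, MYL9, FLNA, TLN1, VCL, ZYX, ACTN1, TPM4 and PFN1. They were chosen by name, as known parts of the proplatelet machinery, and every non-control probe whose RefSeq accession belongs to one of them was used. The 10 genes had 13 probes among the 42405 non-control probes of the array, and 8 of the 10 were among the 17379 genes bright enough to be tested. Of these 17379, 11995 had a gene symbol. Each accession without a symbol was counted as a gene of its own, and the shares over all genes given below include them.

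MEG-01, a human megakaryoblastic leukemia cell line, was nucleofected with the precursor of miR-1225-3p or with a scrambled negative control precursor, each at 200 nM, and total RNA was taken after 24 hours. Each group had 5 biological replicates, all from this 1 line, and each replicate was hybridised to a single 1-colour array. The source label of the scrambled samples says that they had no treatment, which conflicts with their titles. The titles give a scrambled transfection and were followed. The comparison addressed which mRNAs of a megakaryocyte-like cell change when miR-1225-3p is raised. Fewer cells of a kind and less RNA per cell cannot be told apart in such bulk samples.

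Microtubules drive proplatelet extension as bundles that slide past each other, and beta-1 tubulin, the product of TUBB1, is the tubulin isoform restricted to megakaryocytes and platelets. Actin filaments, crosslinked by filamin A and alpha-actinin and pulled by non-muscle myosin IIA, branch the processes and control the timing of release. Talin, vinculin and zyxin couple the actin network to integrins, and inherited variants in MYH9, TUBB1, FLNA, ACTN1 and TPM4 are known causes of large platelets and low platelet counts.

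The transfected miRNA is shown because its seed, bases 2 to 8 in capitals, is the part that pairs with target mRNAs. The mature sequence in RefSeq (GRCh38.p14, chr16:2090195-2090216, minus strand) has 22 bases.
hsa-miR-1225-3p: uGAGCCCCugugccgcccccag
Sites for this seed in the mRNAs of the 10 genes were not analysed here.

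Of the 8 genes tested, 6 were lower in the miR-1225-3p arrays at an adjusted p under 0.05 in limma, and none was higher. These were MYH9, PFN1, ZYX, ACTN1, FLNA and VCL. Over all genes tested, 35% passed the same threshold, 18.1% lower and 17% higher, so the count of the members is read against a background in which changes were frequent in both directions. The median log2 fold change of the 8 genes, miR-1225-3p minus scrambled, was −1.15, against −0.06 over all genes. Because the genes were chosen with earlier results of these arrays known, no test of the list as a whole was made.

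One array decided much of the spread. On the first principal component of all genes, miR-1225-3p replicates 1 to 4 lay from −133.4 to −53 and the scrambled arrays from 48.7 to 79.9. Replicate 5 of miR-1225-3p lay at 56.7, within the scrambled range, so its profile goes against its label and the reason was not tested. Without this array 7 of the 8 genes were lower, TLN1 being added, where 29% of all genes were lower, and the median became −1.42. The arrays differed in brightness. The share of spots well above background was 52.07%, 47.06%, 41.95%, 45.31% and 53.85% on miR-1225-3p replicates 1 to 5. On scrambled replicates 1 to 5 it was 46.71%, 43.09%, 55.52%, 54.56% and 61.18%. No spot was saturated. The 2 slides each held arrays of both groups.

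**Figure D1:**
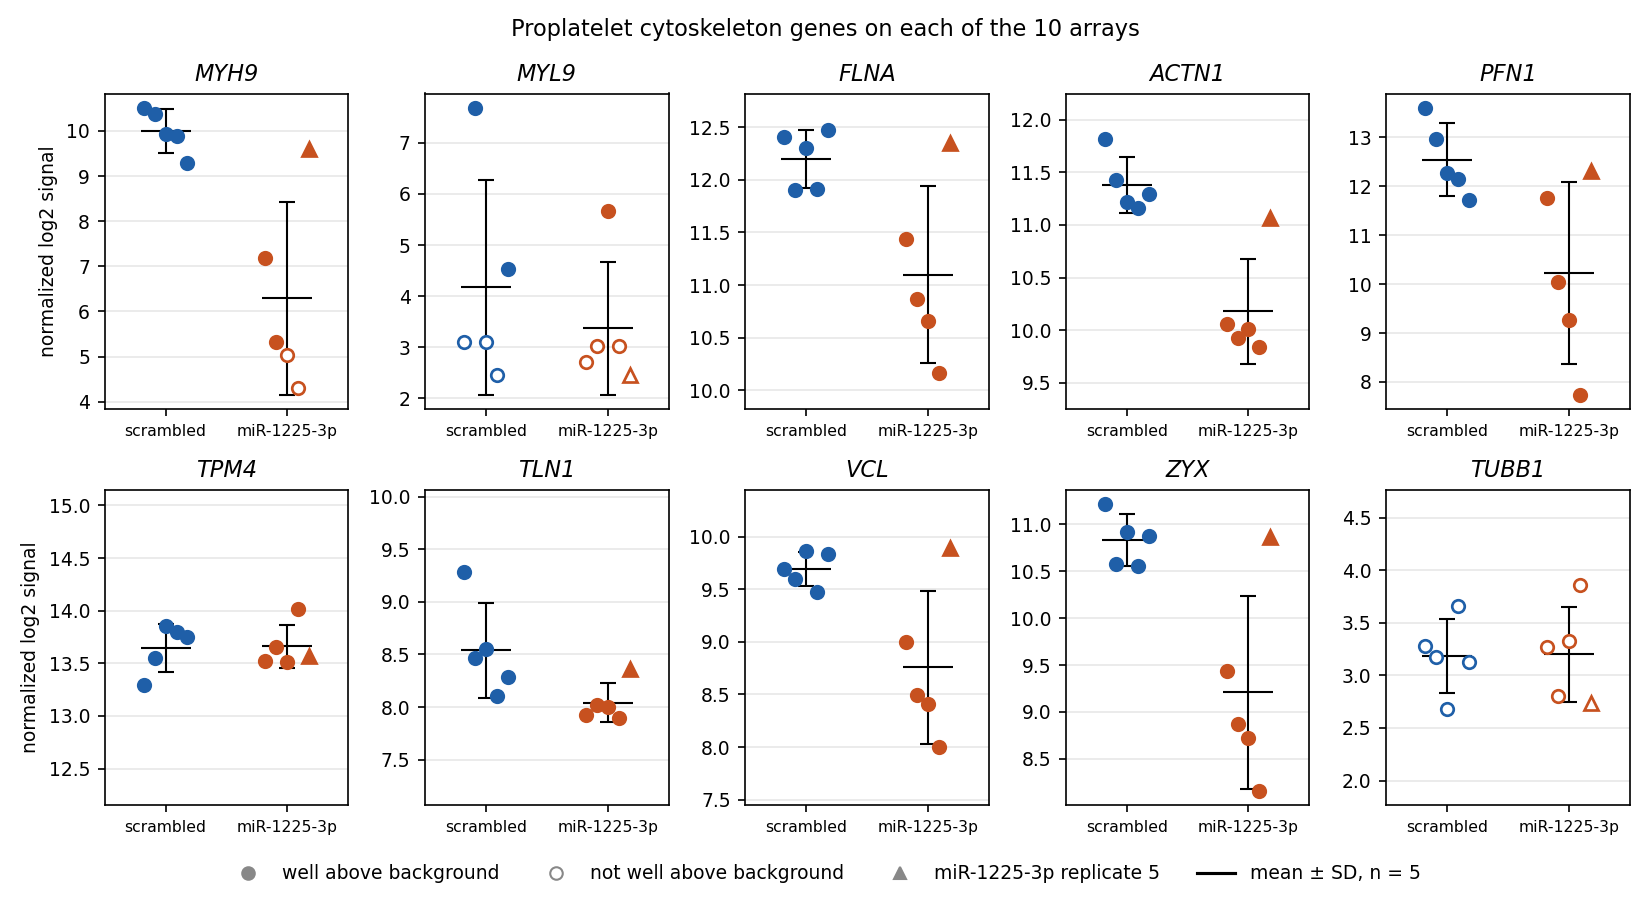
Normalized log2 signal of the 10 genes on the 5 scrambled and 5 miR-1225-3p arrays, 1 point per array and a separate vertical scale for each gene, with open points where the probe was not well above background, a triangle for miR-1225-3p replicate 5 and bars for the mean and SD. For 7 of the 8 tested genes the triangle is the highest miR-1225-3p point, and ACTN1 is the gene whose groups do not overlap.

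MYH9 encodes the heavy chain of non-muscle myosin IIA, the motor that pulls on actin in the megakaryocyte cortex. The normalized log2 signal of its brighter probe was 10.51, 10.38, 9.93, 9.88 and 9.29 on scrambled replicates 1 to 5, and 7.19, 5.32, 5.03, 4.30 and 9.60 on miR-1225-3p replicates 1 to 5. The group means were 10.0 ± 0.484 and 6.29 ± 2.14 (SD, n = 5 each). Replicate 5 was inside the scrambled range, and the other miR-1225-3p arrays were all far under it. The log2 fold change was −3.71 ± 0.869 (SE), a level 13.1-fold lower (adjusted p = 0.0166 in limma), and −4.54 without replicate 5 (adjusted p = 0.000176 in limma). On miR-1225-3p replicates 3 and 4 the probe was not well above background, so the level there is a bound rather than a measurement. With normexp background correction, which lifts dim signals, the log2 fold change was −2.39 (adjusted p = 0.0132 in limma), so the size of the fall depends on how dim signals are treated. A second MYH9 probe, for the same transcript accession, was dim in both groups, from 4.03 to 5.33 on miR-1225-3p arrays and from 4.69 to 5.95 on scrambled arrays. Its log2 fold change was −0.44 (adjusted p = 0.247 over all probes in limma), so the fall rests on the brighter probe.

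PFN1 encodes profilin 1, which delivers actin monomers to growing filament ends. Its log2 signal on scrambled replicates 1 to 5 was 13.60, 12.96, 12.27, 12.14 and 11.71, and on miR-1225-3p replicates 1 to 5 it was 11.76, 10.04, 9.27, 7.74 and 12.31. The miR-1225-3p arrays thus spread over a far wider range than the scrambled arrays, and replicates 1 and 5 overlapped them. PFN1 fell by 2.31 ± 0.795 (SE) on the log2 scale, to a level 4.97-fold lower (adjusted p = 0.0458 in limma). Its call was lost when miR-1225-3p replicate 2, 3 or 4, or any 1 of the scrambled arrays, was left out, where the adjusted p reached 0.102.

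Crosslinkers of actin filaments were lower too. ACTN1, alpha-actinin 1, gave 11.82, 11.42, 11.22, 11.17 and 11.30 on scrambled replicates 1 to 5, against 10.06, 9.93, 10.02, 9.85 and 11.06 on miR-1225-3p replicates 1 to 5. Every miR-1225-3p array lay below every scrambled array, as for 4.75% of the genes compared, and ACTN1 was the only tested member for which this held. The log2 fold change was −1.20 ± 0.243 (SE; adjusted p = 0.0139 in limma), a 2.30-fold lower level. It stayed past the threshold whichever single array was left out.

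FLNA, filamin A, which crosslinks actin and anchors it to the von Willebrand factor receptor, was measured by a bright and a dim probe. The bright probe gave 12.40, 11.90, 12.31, 11.91 and 12.47 on scrambled replicates 1 to 5 and 11.44, 10.86, 10.66, 10.17 and 12.35 on miR-1225-3p replicates 1 to 5. Replicates 1 to 4 lay under all scrambled arrays and replicate 5 among them. FLNA fell by 1.10 ± 0.361 (SE; adjusted p = 0.0395 in limma), or 2.15-fold. The call was lost when any single array other than miR-1225-3p replicate 5 was left out, with an adjusted p of at most 0.0898 in limma. The dim probe, for another transcript variant, was well above background on 2 miR-1225-3p and 3 scrambled arrays, and its fold change on the log2 scale was −0.41 (adjusted p = 0.254 over all probes).

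**Figure D2:**
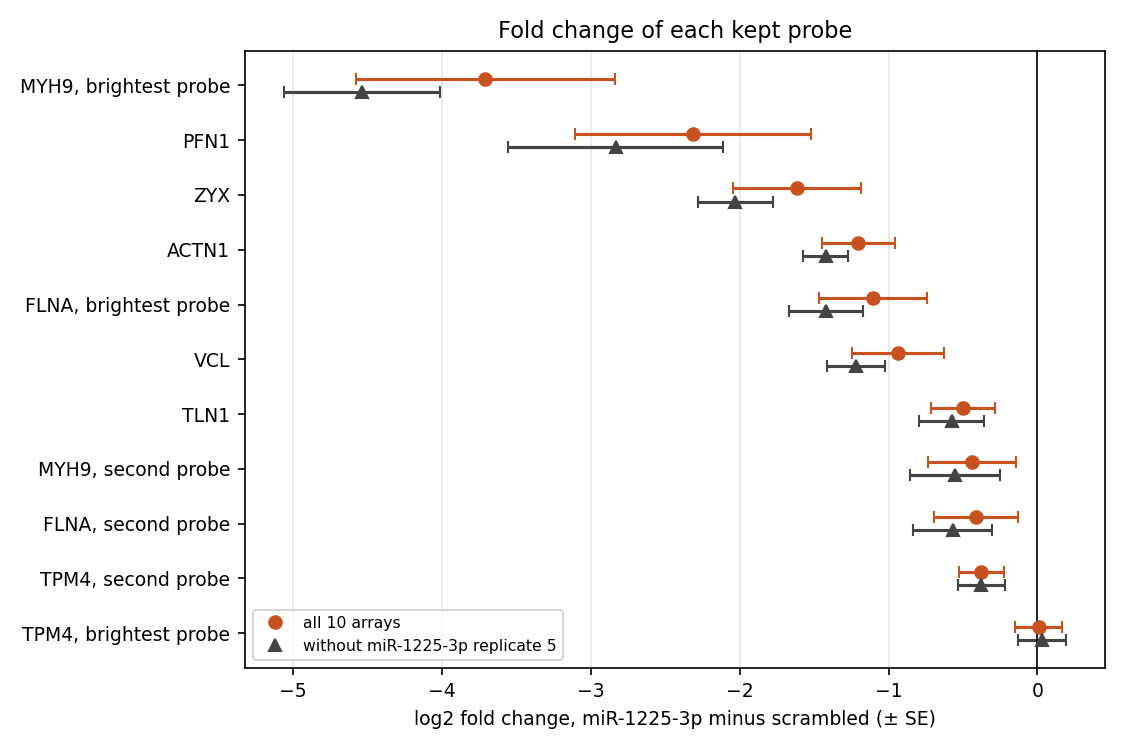
Log2 fold change (miR-1225-3p minus scrambled) with its SE for each of the 11 kept probes of the 8 tested genes, over all 10 arrays (circles) and without miR-1225-3p replicate 5 (triangles). The brighter MYH9 probe lies at −3.71 and the second at −0.44, and the TPM4 probes lie at 0.01 and −0.38.

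The 3 genes of the integrin adhesion layer were ZYX, VCL and TLN1. ZYX, zyxin, a LIM protein of focal adhesions and stressed actin bundles, gave 11.22, 10.58, 10.91, 10.55 and 10.87 on scrambled replicates 1 to 5 and 9.44, 8.87, 8.72, 8.16 and 10.86 on miR-1225-3p replicates 1 to 5. Apart from replicate 5, the miR-1225-3p arrays were more than 1 log2 unit under the lowest scrambled array. ZYX fell by 1.62 ± 0.431 (SE; adjusted p = 0.0224 in limma), or 3.07-fold. The adjusted p was 0.0582 without miR-1225-3p replicate 2, 0.0565 without replicate 3 and 0.0508 without scrambled replicate 1.

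VCL, vinculin, which bridges talin and actin, gave 9.69, 9.60, 9.86, 9.48 and 9.84 on scrambled replicates 1 to 5 and 8.99, 8.49, 8.41, 8.003 and 9.89 on miR-1225-3p replicates 1 to 5. Here replicate 5 was above every scrambled array and the other 4 were below every one. VCL fell by 0.94 ± 0.309 (SE; adjusted p = 0.0406 in limma), or 1.91-fold. Like FLNA, it missed the threshold when any array other than miR-1225-3p replicate 5 was left out (adjusted p at most 0.0924).

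TLN1, talin 1, the adaptor that activates platelet integrins, gave 9.28, 8.46, 8.55, 8.11 and 8.29 on scrambled replicates 1 to 5 and 7.92, 8.02, 8.004, 7.90 and 8.36 on miR-1225-3p replicates 1 to 5. The groups overlapped through replicate 5 alone. The log2 fold change was −0.50 ± 0.215 (SE), with a 95% confidence interval from −0.97 to −0.02 before adjustment, and it did not pass the threshold (adjusted p = 0.0902 in limma). Without scrambled replicate 1, the highest array, it was −0.31, and without miR-1225-3p replicate 5 it was −0.58 (adjusted p = 0.0473 in limma).

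TPM4, a tropomyosin that winds along actin filaments and regulates their use by myosin, stood apart from these genes. Its brighter probe gave 13.29, 13.55, 13.85, 13.79 and 13.75 on scrambled replicates 1 to 5 and 13.53, 13.65, 13.51, 14.01 and 13.57 on miR-1225-3p replicates 1 to 5. The ranges overlapped on both sides, and the log2 fold change was 0.01 with a 95% confidence interval from −0.34 to 0.35 (adjusted p = 0.967 in limma). A second probe of the same accession, also well above background on all arrays, had a log2 fold change of −0.38 ± 0.153 (SE; adjusted p = 0.0757 over all probes). With the 75th percentile of each array subtracted in place of cyclic loess, the first probe was 0.61 higher (adjusted p = 0.0648), so neither its sign nor its size is settled by these arrays.

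The genes of beta-1 tubulin and of a myosin light chain could not be tested. TUBB1 was not well above background on any of the 10 arrays, with log2 signals of 2.68 to 3.66 on scrambled and 2.74 to 3.86 on miR-1225-3p arrays, and no fold change is given. MYL9, a regulatory light chain that switches myosin II on when phosphorylated, was well above background on miR-1225-3p replicate 3 and on scrambled replicates 2 and 5. Its log2 signal was 3.1, 7.68, 3.1, 2.46 and 4.54 on scrambled replicates 1 to 5 and 2.72, 3.03, 5.66, 3.02 and 2.45 on miR-1225-3p replicates 1 to 5. Single arrays of either group therefore stood out, with no separation of the groups. The genes most like TUBB1 across the arrays were not computed for want of a measured TUBB1 signal.

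The miR-1225-3p arrays kept much the same order from gene to gene. Replicate 5 was the highest and replicate 4 the lowest for 7 of the 8 genes, TPM4 being the exception, and the full order of the 5 arrays was the same for MYH9, FLNA, VCL, ZYX and PFN1. That order was not particular to them, since 784 of the 3144 genes called lower, 24.9%, had it too. With slide as a block, 3 of the 8 genes, MYH9, ACTN1 and ZYX, stayed called lower, as were 15.4% of all genes. Within slide 1, which holds 2 miR-1225-3p and 3 scrambled arrays, 5 of the 8 genes were called, all lower, PFN1 being the one lost, where 14% of all genes were lower. Within slide 2, which holds replicate 5, none was, in limma after adjustment or at an unadjusted p under 0.05, although the median of the members was −0.92. Of all genes, 0 were called there after adjustment. With replicate 5 left out of slide 2, a choice made after seeing the data, 6 genes were called lower, as were 18.6% of all genes, and the median was −1.43.

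To place these genes, 84 others of the same machinery were listed by role, of which 79 were tested. Among them 26, or 32.9%, were lower and 8 higher, where 18.1% of all genes were lower and 17% higher. The median log2 fold change of the 79 was −0.30. Leaving out miR-1225-3p replicate 5 gave 39 lower and 13 higher, where 29% of all genes were lower and 26.4% higher. This split depended on the scaling. With the 75th percentile subtracted, which raised the median of all genes from −0.06 to 0.16, 22 were lower and 20 higher, against 14.9% lower and 26.3% higher over all genes, while 3 of the 8 members, MYH9, ACTN1 and ZYX, stayed called, all lower. On that scale the median of the members was −0.68.

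**Figure D3:**
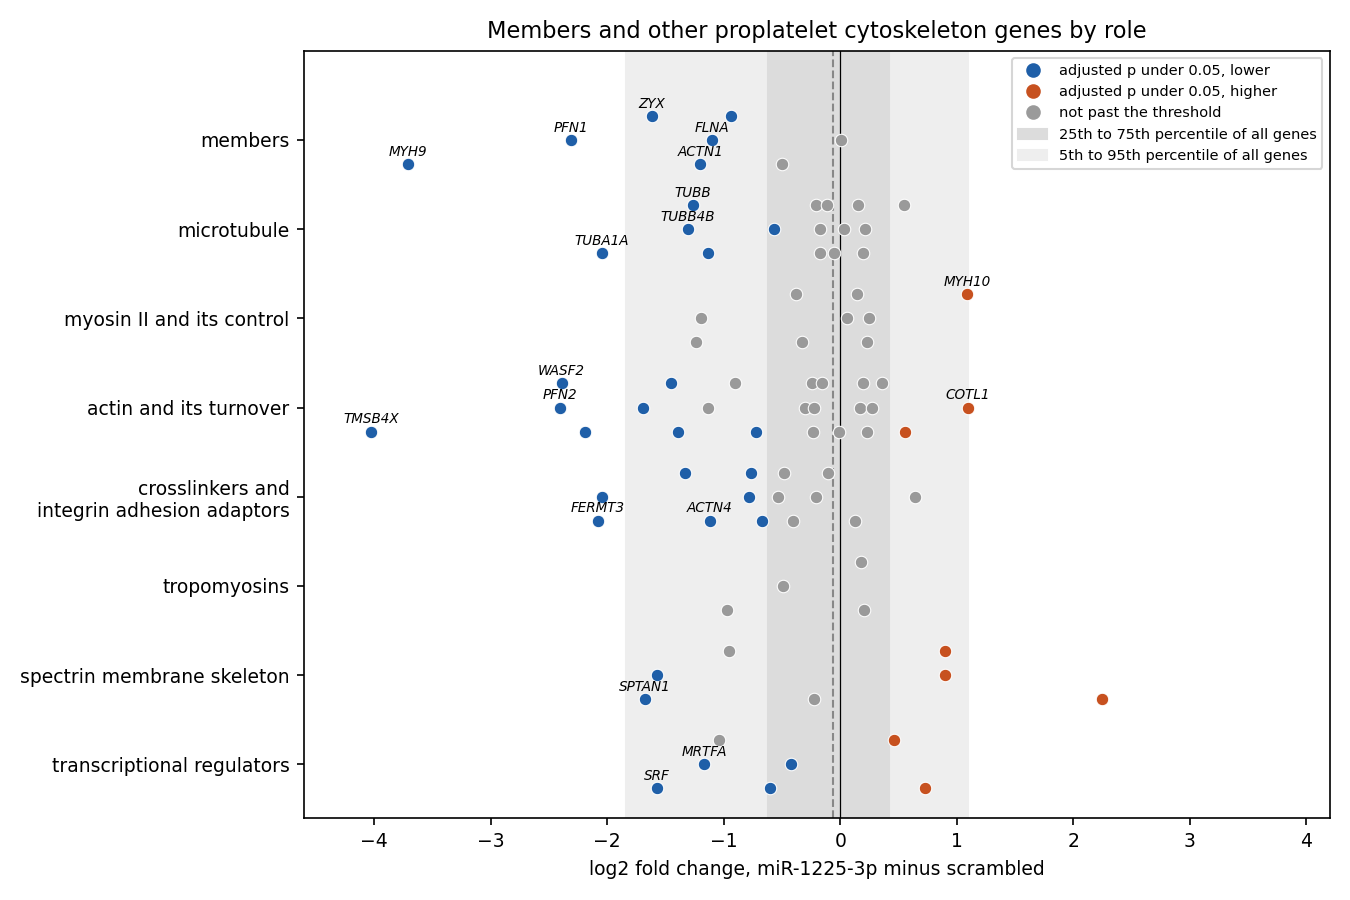
Log2 fold change (miR-1225-3p minus scrambled) of the 8 tested members and the 79 other tested genes by role, 1 point per gene, blue for lower and orange for higher at an adjusted p under 0.05, over grey bands for the percentiles of all genes and a dashed line at their median of −0.06. MYH9 and TMSB4X lie farthest to the left, and the myosin II genes hold no blue point.

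By their brightest probes, tubulins and microtubule proteins had 5 of 15 genes lower, 33.3%, and none higher. Over all genes, 18.1% were lower and 17% higher. TUBA1A and TUBB4B, an alpha- and a beta-tubulin, were the steepest, at −2.05 ± 0.531 (SE; adjusted p = 0.0210) and −1.30 ± 0.311 (SE; adjusted p = 0.0173 in limma). TUBB, a widely expressed beta-tubulin, was at −1.26 (adjusted p = 0.0186). On TUBB the miR-1225-3p arrays read 11.75, 11.73, 11.68, 11.14 and 13.11 against 12.96 to 13.43 on scrambled arrays, again with replicate 5 inside the scrambled range. TUBB2B, a further beta-tubulin, and DYNC1H1, the dynein heavy chain that slides microtubules, were the other genes that fell, at −1.14 and −0.56, and are named after their values were seen. TUBB6, another beta-tubulin, had −0.17 (adjusted p = 0.375 in limma), and 0.43 with the 75th percentile subtracted. The count depends on the probe chosen. Other probes of TUBA1C, TUBA4A and TUBG1, genes not called by their brightest probe, were at −2.2, −1.66 and −1.26 (adjusted p = 0.0212, 0.0152 and 0.0435 over all probes). These probes were well above background on all arrays, and the genes are named after their values were seen. A further TUBA4A probe had −0.25 (adjusted p = 0.314 over all probes). Whether a tubulin probe also binds transcripts of its close relatives was not analysed.

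By their brightest probes, 1 of 9 genes in the myosin II list passed the threshold, against 35% of all genes, and that gene rose. MYH10, the heavy chain of myosin IIB, which megakaryocytes silence as they become polyploid, gave 5.94 to 6.41 on scrambled arrays and 7.19, 7.58, 7.93, 7.80 and 6.11 on miR-1225-3p replicates 1 to 5. Its log2 fold change was 1.09 ± 0.313 (SE; adjusted p = 0.0272 in limma), the opposite direction to MYH9, its paralog, and replicate 5 was again with the scrambled arrays. The MYH10 call was lost on leaving out replicate 2, 3 or 4 of miR-1225-3p or replicate 1, 2, 3 or 4 of the scrambled group (adjusted p at most 0.0681). The light chain genes MYL12A and MYL12B, relatives of MYL9, had 0.23 (adjusted p = 0.318) and 0.06 (adjusted p = 0.684 in limma). Both were higher with the 75th percentile subtracted, MYL12A at 0.86 (adjusted p = 0.0405) and MYL12B at 0.73 (adjusted p = 0.0306), and MYL12A also without miR-1225-3p replicate 5, at 0.38 (adjusted p = 0.0213 in limma). Without that array 2 of the 9 genes were higher and 2 lower, against 26.4% and 29% of all genes. The lower ones, named after their values were seen, were MYH14 at −1.63 (adjusted p = 0.00158) and MYL6 at −0.45 (adjusted p = 0.00923 in limma). Second probes went against the brightest for MYH14, at 0.99 (adjusted p = 0.0215), and PPP1R12A, at −2.96 (adjusted p = 0.0162 over all probes). The latter was well above background on 1 miR-1225-3p array.

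Actin and its turnover, by brightest probe, had 8 of 23 genes lower, 34.8%, and 2 higher, against 18.1% lower and 17% higher over all genes. TMSB4X, thymosin beta 4, which sequesters actin monomers, gave 13.17 to 13.57 on scrambled arrays and 10.68, 7.90, 7.11, 7.62 and 13.70 on miR-1225-3p replicates 1 to 5. It fell by 4.03 ± 1.10 (SE; adjusted p = 0.0238 in limma), a call lost on leaving out replicate 2, 3 or 4 of miR-1225-3p or replicate 4 of the scrambled group (adjusted p at most 0.0620). WASF2, which activates the Arp2/3 complex, was at −2.39 (adjusted p = 0.0161 in limma). PFN2, the other profilin, was at −2.41 (adjusted p = 0.0234) but well above background on only 2 miR-1225-3p arrays, and at −0.84 with normexp, so its size is uncertain. COTL1, an actin-binding protein of the cofilin family, and ARPC5, an Arp2/3 subunit, were higher, at 1.09 (adjusted p = 0.0213) and 0.56 (adjusted p = 0.0271 in limma). A second ARPC5 probe, well above background on all arrays, had −0.20 (adjusted p = 0.252), and the mean of both was 0.18 (adjusted p = 0.245 in limma). The count depends on the probe chosen here too. Other probes of CAPZA1, DIAPH1 and CDC42, not called by their brightest probe, were at −3.665, −1.525 and 0.81 (adjusted p = 0.0197, 0.0317 and 0.0147 over all probes in limma). Those of CAPZA1 and DIAPH1 were well above background on 2 and 3 miR-1225-3p arrays. These genes are named after their values were seen.

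Crosslinkers and adhesion adaptors other than the members had 7 of 14 genes lower, 50%, and none higher, against 18.1% and 17% of all genes. The median of the 14 was −0.60. FERMT3, kindlin-3, the partner of talin in activating platelet integrins, was at −2.08 ± 0.606 (SE; adjusted p = 0.0282 in limma), a call lost in 7 of the 10 fits that leave out an array (adjusted p at most 0.0688). ACTN4, the paralog of ACTN1, was lower too, at −1.12 (adjusted p = 0.0187 in limma), whereas TLN2 had −0.40 (adjusted p = 0.217) and 0.08 with the 75th percentile subtracted. Of the 4 tropomyosin and tropomodulin genes listed beside TPM4, 0 passed the adjusted threshold in limma, 2 had an unadjusted p under 0.05 there, and 0 passed after adjustment with the methods' t-test. Over all genes, 35% passed the adjusted threshold in limma. TPM1 had 0.18 (adjusted p = 0.244), and TPM3 had −0.49 (adjusted p = 0.0939), or 0.10 with the 75th percentile subtracted. The 5 kept probes of TPM3 all lay below 0 with cyclic loess but differed in size, from −1.10 to −0.36. Their mean was −0.70 (adjusted p = 0.0330) and the probe with the smallest p was at −1.10 (adjusted p = 0.0228 in limma), so TPM3 was called lower by these choices. Without miR-1225-3p replicate 5, TPM3 and TMOD3 were lower.

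The spectrin skeleton, which supports the invaginated membrane system that proplatelets draw on, moved in both directions, with 2 of 7 genes lower and 3 higher. Over all genes, 18.1% were lower and 17% higher. SPTAN1, the alpha-spectrin of non-erythroid cells, was at −1.68 ± 0.347 (SE; adjusted p = 0.0141 in limma). SPTB and SPTBN1, a beta-spectrin of red cells and one of most other cells, were both at 0.90 (adjusted p = 0.0211 and 0.0438 in limma). The SPTBN1 call was lost when any array other than miR-1225-3p replicate 5 was left out (adjusted p at most 0.0968), and with normexp it was 0.44 (adjusted p = 0.0574). ADD1, alpha-adducin, named after its value was seen, was lower at −1.57 (adjusted p = 0.0136 in limma), on a probe well above background on 3 miR-1225-3p and all 5 scrambled arrays.

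Of the 7 transcription factors that control these genes, 4 were lower and 2 higher, where 18.1% of all genes were lower and 17% higher. SRF, serum response factor, which with its coactivators MRTFA and MRTFB drives actin cytoskeleton genes in megakaryocytes, was at −1.57 (adjusted p = 0.0400 in limma), on a probe well above background on 1 miR-1225-3p and 3 scrambled arrays. With so little measured signal its size is uncertain, and with normexp it was −0.34 and not called (adjusted p = 0.0565), as in 8 of the 10 fits that leave out an array. MRTFA gave 4.88 to 6.20 on miR-1225-3p arrays and 6.54 to 6.88 on scrambled arrays, without overlap. For 4.75% of the genes compared, every miR-1225-3p array likewise lay below every scrambled array. The log2 fold change of MRTFA was −1.17 ± 0.248 (SE; adjusted p = 0.0146 in limma), or −0.49 with normexp (adjusted p = 0.0163), the probe being not well above background on miR-1225-3p replicates 3 and 4. MRTFB was at 0.73 (adjusted p = 0.0404), and FLI1, which activates late megakaryocyte genes, was at −0.60 (adjusted p = 0.0289 in limma). Of the 10 fits that leave out an array, 9 lost the MRTFB call and 5 the FLI1 call, and with quantile normalization FLI1 was at −0.47 (adjusted p = 0.0781). NFE2, the factor needed for TUBB1 expression and platelet release, gave 12.27 to 12.64 and 12.76 to 12.92, at −0.43 (adjusted p = 0.0255), but 0.13 with the 75th percentile subtracted. RUNX1, which represses MYH10, was at 0.46 (adjusted p = 0.0216 in limma), with a mean of its 5 probes at −0.13.

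SRF binds a motif known as the CArG box. The 250 bases before the start of each transcript in the RefSeq promoter windows (GRCh38.p14) were searched for it on both strands, and 407 of 35116 windows, 1.16%, held a match. Of the 9 members with windows, 14 windows in all, 3 had a match in 1 window each, and the 100 bases around each match are shown with the motif in capitals, on the strand of the gene.
FLNA, chrX:154374674-154374773, minus strand, 94 bases before the start: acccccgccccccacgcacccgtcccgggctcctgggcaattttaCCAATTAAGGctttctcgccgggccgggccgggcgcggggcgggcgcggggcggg
ACTN1, chr14:68977683-68977782, minus strand, 171 bases before the start: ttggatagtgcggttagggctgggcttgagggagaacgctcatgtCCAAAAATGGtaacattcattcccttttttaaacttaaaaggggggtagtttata
TPM4, chr19:16067320-16067419, plus strand, 173 bases before the start: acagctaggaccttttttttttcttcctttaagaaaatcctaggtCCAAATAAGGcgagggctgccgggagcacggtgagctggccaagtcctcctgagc
Of these genes FLNA and ACTN1 were lower and TPM4 did not pass the test. ACTN1 and TPM4 also had windows without a match, and which start MEG-01 cells use was not analysed. Among 73 other listed genes with windows, 6 held a match. Of these, ACTG1, LPP and SRF itself were lower, names given after their values were seen, with LPP and SRF each well above background on 1 miR-1225-3p and 3 scrambled arrays, ROCK2 did not pass the test, and MYLK and TES were not tested. The counts by gene are not on the scale of the 1.16%, which is per window, since a gene can have more than 1 window. A match is a description of the letters only.

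The cell type was checked against marker lists. Of 8 megakaryocyte markers 5 were tested, and 3 were well above background on all arrays, while GP1BB and PF4 were well above background on none. ITGA2B, integrin alpha IIb, was lower, at −1.39 (adjusted p = 0.0437 in limma). It was 1 of 5 tested, 20%, where 18.1% of all genes were lower. Not called were ITGB3 at −0.46 (adjusted p = 0.0560), GP9 at −1.20 (0.0600), GP1BA at −1.24 (0.0809) and PPBP at 0.17 (0.246 in limma). GP1BA was well above background on 1 miR-1225-3p and 3 scrambled arrays. The mean log2 signal of the tested megakaryocyte markers was 6.42 to 7.78 on miR-1225-3p arrays and 7.62 to 7.80 on scrambled arrays. All 5 erythroid markers were well above background on all arrays, with means of 13.01 to 13.41 and 13.19 to 13.51. Of these, 0 passed the adjusted threshold in limma or with the methods' t-test, and 1 had an unadjusted p under 0.05 in each. Of 4 fibroblast markers COL1A1 alone was tested and not called, and the lymphocyte marker CD3E was called higher (adjusted p = 0.0327 in limma), with a size that is not given because its probe was well above background on 3 miR-1225-3p and 1 scrambled arrays. The part of any such shift in the values of the cytoskeleton genes was not tested.

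**Figure D4:**
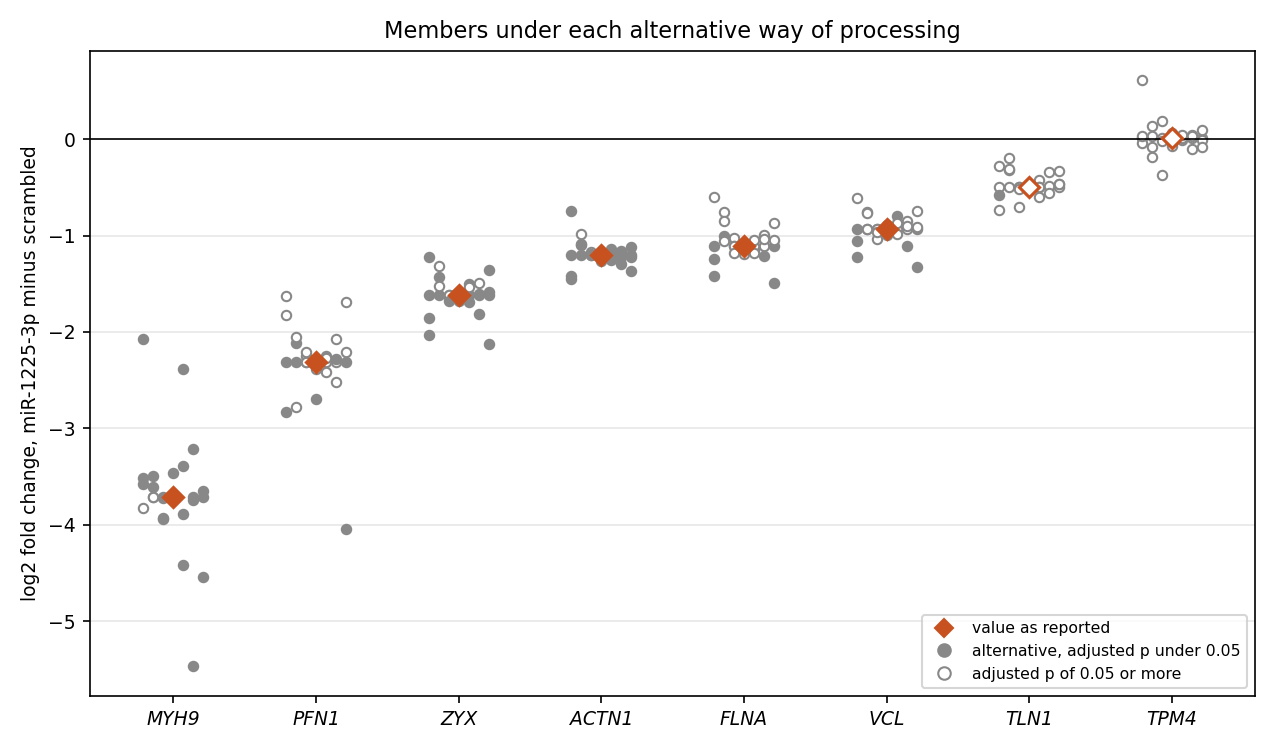
Log2 fold change (miR-1225-3p minus scrambled) of the 8 tested members as reported (diamonds) and under each alternative normalization, filter, test or set of arrays (circles), filled where the adjusted p was under 0.05. MYH9, ACTN1, ZYX, PFN1, FLNA, VCL and TLN1 lie below 0 under every alternative run, with MYH9 between −5.47 and −2.08, while TPM4 lies on both sides of 0.

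Across the alternatives the direction of the 6 called genes and of TLN1 never changed, but their calls differed in how well they held. MYH9 kept its call in 25 of 27 alternatives and ACTN1 in 25 of 28, whereas ZYX kept it in 22 of 28, PFN1 and VCL in 12 of 28 and FLNA in 11 of 28. MYH9 lost its call within slide 2 and with a replicate block, where 0 of all genes were called.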

How the data were processed

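Gene expression was measured with Agilent 60-mer arrays. Per the file headers, the authors made the deposited intensity values with Feature Extraction 10.7.3.1, which subtracts background and flags spots as outliers, saturated or well above background. The methods name another version. A table of log2 values for 29271 probes, which the authors deposited after their own normalization, was used as an alternative (correlation with the values here 0.848 to 0.988 per array). Cyclic loess (limma 3.58.1, R 4.3.3, 3 iterations) was applied here to the log2 of the processed signal, without 4259 control spots, and replicate spots were averaged after outliers were removed. A probe was kept if 3 or more of the 5 arrays of a group showed it well above background (20648 kept), and the brightest kept probe stood for a gene. Accessions of 24910 probes matched a symbol in the RefSeq table of GRCh38.p14. Groups were compared with limma (lmFit, eBayes) and Benjamini-Hochberg adjustment over 17379 genes at 0.05, without a replicate block. The number of arrays limits the precision.

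The members and lists were chosen with earlier results of these data known. Named besides the members were, per role, up to 2 rises and 2 falls that were called and well above background on all 10 arrays, the closest paralogs of members, SRF, MRTFA and NFE2. Some genes that this rule or the lists cover are not reported here. Alternatives were other scalings (75th percentile, quantile, none), normexp background correction (offset 50), filters, probe choice, moderation with trend, the methods' t-test, array weights, slide, replicate block and each array left out.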

Additional observations from a re-analysis of the deposited data

Results flagged for a closer look

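In 4 of 26 groups of 5 arrays examined, 1 array stood apart from the others by Dixon's criterion, where about 1.3 would be flagged by chance. MYL9 had a log2 signal of 5.66 on miR-1225-3p replicate 3, against 2.45 to 3.03 on the other miR-1225-3p arrays. TLN1 had 8.36 on miR-1225-3p replicate 5, against 7.90 to 8.02. ACTN1 had 11.06 on miR-1225-3p replicate 5, against 9.85 to 10.06. TPM4, by its brighter probe, had 14.01 on miR-1225-3p replicate 4, against 13.51 to 13.65.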

How the results depend on the processing

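The number of members called, 6 as reported, was 1 without normalization and 0 within slide 2, and 3 each with the 75th percentile subtracted, with dim probes kept, with the methods' t-test and with slide as a block. It lay between 5 and 6 with quantile normalization, the authors' values, normexp, the filter at all 10 arrays, outlier spots kept, either other probe choice, trend, array weights and slide 1 alone. Leaving out each array gave 2 to 7, namely 2 when replicate 2 or 3 of miR-1225-3p or replicate 1 of the scrambled group was left out, 3 for replicate 4 of miR-1225-3p or any other scrambled array, and 4 and 7 for replicates 1 and 5 of miR-1225-3p. The other cytoskeleton genes called, 34 as reported, were 7 without normalization, 62 with array weights and 0 within slide 2 (5 at an unadjusted p under 0.05, and 0 of the members), and 12 to 52 with each array left out. The median of the members stayed between −1.43 and −0.68 throughout. Same-numbered arrays of both groups did not deviate together (correlations of −0.217, −0.0756, −0.401, 0.0723 and −0.152 for replicates 1 to 5), and a replicate block left 0 members and 0 other listed genes called in limma, where 6 and 42 had an unadjusted p under 0.05. Of all 17379 genes, 0 were called with that block or within slide 2, and without normalization 1092 were called lower and 174 higher. The sign turned with the 75th percentile subtracted for NFE2 (0.13), TUBB6 (0.43), TLN2 (0.076) and TPM3 (0.10), and without normalization for TUBB6 (0.006) and TPM1 (−0.022). It turned for RUNX1 (−0.13) with the mean of its probes. TPM4 had −0.075 with the authors' values, −0.007 with normexp, −0.18 with the mean of its probes, −0.11 with array weights, −0.38 with its second probe, which has the smaller p, −0.007 with slide as a block, −0.041 within slide 1 and −0.081 to 0.060 with each array left out. The median of all genes, −0.06 as reported, was 0.16 with the 75th percentile subtracted, 0.075 with quantile normalization and −0.26 without normalization. Leaving out 1 array also ended the calls of COTL1, SPTB and TUBA1A (miR-1225-3p replicate 2 or 3, adjusted p at most 0.0572, 0.0573 and 0.0553), ACTN4 (miR-1225-3p replicate 2, 0.0512), RUNX1 (miR-1225-3p replicate 3, scrambled 2 or 3, 0.0571), PFN2 (miR-1225-3p replicate 2 or 3, scrambled 2, 0.0610), NFE2 (miR-1225-3p replicate 1, 2 or 3, scrambled 3 or 4, 0.0646), FLI1 (miR-1225-3p replicate 2 or 3, scrambled 2, 3 or 4, 0.0678), FERMT3 (miR-1225-3p replicate 2, 3 or 4, scrambled 1, 3, 4 or 5, 0.0688), ARPC5 (any but replicate 5 of either group, 0.0717), SRF (any but miR-1225-3p replicate 5 and scrambled 1, 0.0924) and MRTFB (any but miR-1225-3p replicate 5, 0.0942). The causes were not tested.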
